A study of Mus musculus with 8 samples.

Results

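Ttr, Folr1, Kl, Enpp2, Clic6, Aqp1, Otx2, Prlr, Cldn2 and Sostdc1 are 10 genes known for high expression in the choroid plexus, and they were described here in mouse hippocampal RNA-Seq libraries. The members are the rows of the expression table whose gene symbol equals one of these 10 names, out of 46983 genes. They were chosen by their TPM values in these same libraries, which were already known to be low in S1 and S3, so those levels are given as a description with no test. All 10 were found once in the table.

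Hippocampal RNA was sequenced from 4 XBP1s-TG mice (libraries S1 to S4) and 4 Control mice (libraries S5 to S8), all C57BL/6, 2 months old and taken 7 days after doxycycline (Dox) was removed from the drinking water. XBP1s-TG mice carry TRE-XBP1s and Camk2a-tTA, a Tet-off system in which Dox withdrawal switches on the active, spliced form of the transcription factor XBP1. The Camk2a promoter drives the system in forebrain neurons, and a single TRE-XBP1s line was used. The genotype of the Control mice is given only as Control, and the sex of each mouse is not given in the sources used here.

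The choroid plexus is a fold of vascular tissue that hangs into the brain ventricles, covered by a single layer of cuboidal epithelium that makes cerebrospinal fluid. Its epithelial cells secrete transthyretin, take up folate and ions, and are sealed by tight junctions that form the blood-cerebrospinal fluid barrier. In the mouse the choroid plexus of the lateral ventricle is attached along the fimbria of the hippocampus, so a dissected hippocampus can carry a variable piece of it. Hippocampal neurons are known to express most of these genes weakly, although klotho is also found in neurons and Enpp2 in oligodendrocytes.

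Reads assigned to genes numbered 34908473 to 52187879 per library, and levels are given in TPM, which are scaled by gene length and library size. Xbp1, which checks the labels, stood at 786, 549, 1094 and 729 TPM in the XBP1s-TG libraries S1, S2, S3 and S4, against 68.9 to 71.9 TPM in Control libraries, and no library went against its label. The granule cell gene Prox1, a defining marker of the dentate gyrus, stood at 34.5 to 37.3 TPM in XBP1s-TG and 33.1 to 35.5 TPM in Control libraries. Bulk tissue was measured, so fewer choroid plexus cells and less of these RNAs per cell cannot be told apart.

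The promoters of a few members are shown because the members move together across libraries and because 1 member, Otx2, encodes a homeodomain transcription factor of the choroid plexus whose family recognizes the core TAATCC. RefSeq promoters (build GRCm38.p6, 250 bases before to 50 after a transcription start) were matched for 5 members, Kl, Aqp1, Otx2, Prlr and Cldn2, and for 11 of the 12 genes nearest to the members in pattern. Ttr, Folr1, Enpp2, Clic6 and Sostdc1 are named only. The core TAATCC, or GGATTA on the other strand, was found in 1 of 10 member promoters and in 3 of 14 promoters of the nearest genes, beside 2320 of all 32851 promoters of this length (7.06%). Printed 5′ to 3′, with the core in capitals where it occurs, they are 1 of the Otx2 promoters and that of Mfrp, which hold the core, and those of Kl and Aqp1, which do not:
Otx2 (chr14:48665060-48665359, minus strand): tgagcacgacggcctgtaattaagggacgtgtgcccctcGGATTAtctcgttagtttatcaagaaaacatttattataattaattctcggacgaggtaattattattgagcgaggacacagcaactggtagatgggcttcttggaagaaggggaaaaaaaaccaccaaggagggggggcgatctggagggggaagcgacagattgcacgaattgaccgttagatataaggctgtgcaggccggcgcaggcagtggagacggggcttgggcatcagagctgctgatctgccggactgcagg
Mfrp (chr9:44101520-44101819, plus strand): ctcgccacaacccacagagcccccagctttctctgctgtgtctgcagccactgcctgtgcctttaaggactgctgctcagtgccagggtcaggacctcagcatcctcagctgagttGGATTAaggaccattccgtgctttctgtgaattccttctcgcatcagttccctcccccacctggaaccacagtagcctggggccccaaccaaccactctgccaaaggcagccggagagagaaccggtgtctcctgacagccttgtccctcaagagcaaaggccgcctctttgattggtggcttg
Kl (chr5:150952357-150952656, plus strand): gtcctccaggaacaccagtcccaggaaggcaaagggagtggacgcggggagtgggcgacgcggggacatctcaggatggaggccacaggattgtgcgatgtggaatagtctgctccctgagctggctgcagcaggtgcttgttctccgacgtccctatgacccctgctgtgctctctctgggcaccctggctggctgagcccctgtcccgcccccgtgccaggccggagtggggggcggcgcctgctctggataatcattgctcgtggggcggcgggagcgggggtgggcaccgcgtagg
Aqp1 (chr6:55336049-55336348, plus strand): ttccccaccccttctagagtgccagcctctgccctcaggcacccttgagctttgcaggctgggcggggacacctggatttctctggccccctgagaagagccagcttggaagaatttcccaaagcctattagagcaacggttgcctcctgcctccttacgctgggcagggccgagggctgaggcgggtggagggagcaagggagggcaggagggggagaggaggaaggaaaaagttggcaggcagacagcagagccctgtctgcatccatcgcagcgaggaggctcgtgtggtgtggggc

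Letters that match the core are a description of these windows and not a binding site. Otx2 has further annotated starts whose windows lack the core, and a core outside these 300 bases was not searched for.

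All 10 members were lower in both S1 and S3 than in each of the other 6 libraries. The gap between the higher of S1 and S3 and the lowest of the other 6 libraries was 4.28-fold for Otx2, the narrowest, and 23.9-fold for Ttr, the widest. Among the 9270 genes that passed the filter on low values, 7.0% were lower in S1 and S3 than in the other 6 libraries. The members were chosen for this pattern, so nothing is read from their count.

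Ttr (ENSMUSG00000061808) encodes transthyretin, the carrier of thyroid hormone and of retinol-binding protein in cerebrospinal fluid and blood. Ttr stood at 70.1, 4962, 162 and 8827 TPM in XBP1s-TG libraries S1, S2, S3 and S4, against 6782, 8627, 6774 and 3876 TPM in Control libraries S5, S6, S7 and S8. S1 held 1.08% of the Control mean (95% counting interval 1.01 to 1.15%, 981 reads) and S3 held 2.49% (2.39 to 2.59%, 2411 reads). The groups overlapped, because S2 lay inside the Control range and S4 just above it. By level Ttr ranked 2664th of all genes in S1, 16th in S2, 1042nd in S3 and 10th in S4, against places 13 to 18 in Control libraries. The groups averaged 3506 ± 4220 TPM in XBP1s-TG and 6515 ± 1963 TPM in Control (SD, n = 4 each).

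Enpp2 (ENSMUSG00000022425, GRCm38 chr15:54838898-54920146, minus strand) encodes autotaxin, the enzyme that makes lysophosphatidic acid. It stood at 133, 838, 162 and 1496 TPM in S1 to S4 of XBP1s-TG, against 1284, 1463, 1178 and 746 TPM in S5 to S8 of Control. S1 and S3 kept 11.4% and 13.9% of the Control mean, several times the share that Ttr kept in the same libraries. The reads behind these values, 5298 in S1 and 6842 in S3, leave counting intervals of 11.1 to 11.7% and 13.5 to 14.2%. In S1 Enpp2 was more abundant than Ttr and in S3 about as abundant, whereas in the other 6 libraries it stood at 169 to 192 TPM per 1000 TPM of Ttr.

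Sostdc1 (ENSMUSG00000036169, chr12:36314169-36318452, plus strand) encodes a secreted antagonist of BMP and Wnt signaling. It stood at 4.03, 24.6, 4.36 and 35.2 TPM in S1 to S4, against 37.0, 44.4, 29.4 and 19.2 TPM in Control libraries S5 to S8. S1 and S3 were at 12.4% (9.84 to 15.4%, 81 reads) and 13.4% (10.8 to 16.4%, 93 reads) of the Control mean, and their counting intervals overlapped.

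For both receptors S1 and S3 again lay below the other 6 libraries. Kl (ENSMUSG00000058488, chr5:150952607-150993817, plus strand) encodes klotho, a coreceptor for FGF23 that is also shed into cerebrospinal fluid. Kl stood at 4.46, 32.3, 4.70 and 55.4 TPM in S1 to S4, against 49.5, 52.1, 44.6 and 27.0 TPM in S5 to S8. S1 and S3 were nearly level, at 10.3% (9.39 to 11.3%) and 10.9% (9.96 to 11.8%) of the Control mean. Prlr (ENSMUSG00000005268, chr15:10177238-10349180, plus strand) encodes the prolactin receptor, which in choroid plexus is thought to bring prolactin into cerebrospinal fluid. Prlr stood at 0.693, 4.94, 0.139 and 12.9 TPM in S1 to S4, against 8.59, 5.41, 8.51 and 3.38 TPM in S5 to S8.

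Prlr was the member with the least regular order. S3, with 26 reads, lay below S1, with 122 reads, at 2.15% (1.40 to 3.15%) and 10.7% (8.89 to 12.8%) of the Control mean. S4 was at 200% of the Control mean, the highest such share of any member in any library. Among Control libraries S6 was not the highest for Prlr, as it was for the other 9 members. No library reached the limit of 14 TPM for Prlr, so it was not among the 9 members fitted.

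Among the transport and barrier genes, Aqp1, Folr1 and Cldn2 kept a smaller share of the Control mean in S1 and S3 than Clic6 did. Folr1 (ENSMUSG00000001827, chr7:101858331-101870788, minus strand) encodes folate receptor alpha, which carries folate across the epithelium. It stood at 0.948, 22.1, 1.68 and 37.4 TPM in S1 to S4, against 30.6, 39.6, 32.2 and 20.7 TPM in S5 to S8. Only 25 reads in S1 and 47 in S3 lay behind the low values, which amounted to 3.08% (1.99 to 4.55%) and 5.46% (4.01 to 7.26%) of the Control mean. Aqp1 (ENSMUSG00000004655, chr6:55336432-55348555, plus strand) encodes the water channel of the ventricle-facing membrane. Aqp1 stood at 0.232, 17.9, 1.13 and 30.3 TPM in S1 to S4, against 24.3, 30.5, 23.6 and 13.5 TPM in S5 to S8. With 7 reads in S1, its share of the Control mean was 1.01% with an interval of 0.406 to 2.08%, and with 36 reads in S3 it was 4.90% (3.43 to 6.78%). These intervals did not overlap, so S1 was lower than S3 for Aqp1 beyond counting error.

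Cldn2 (ENSMUSG00000047230, chrX:139800828-139811386, plus strand) encodes claudin-2, a pore-forming tight junction protein of leaky epithelia. It stood at 0.603, 12.4, 1.11 and 22.5 TPM in S1 to S4, against 18.0, 20.9, 16.8 and 9.95 TPM in S5 to S8. The low libraries held 23 and 45 reads, 3.67% (2.33 to 5.51%) and 6.77% (4.94 to 9.06%) of the Control mean. Clic6 (ENSMUSG00000022949, chr16:92485736-92541243, plus strand) belongs to the chloride intracellular channel family. It stood at 4.38, 41.3, 4.66 and 73.5 TPM in S1 to S4, against 58.3, 70.1, 53.7 and 30.3 TPM in S5 to S8. S1 and S3 were alike within counting error for Clic6, at 8.26% (7.15 to 9.50%) and 8.78% (7.66 to 10.01%) of the Control mean.

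Otx2 (ENSMUSG00000021848, chr14:48657679-48667644, minus strand), the transcription factor, had the narrowest gap between libraries. It stood at 1.33, 9.38, 1.28 and 16.6 TPM in S1 to S4, against 11.96, 15.9, 12.1 and 5.71 TPM in S5 to S8. S1 and S3 kept 11.7% (8.73 to 15.3%) and 11.2% (8.41 to 14.7%) of the Control mean, from 52 and 53 reads. Otx2 and Prlr were the members in which S1 was not below S3, and for Otx2 that order was within counting error.

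**Figure D1:**
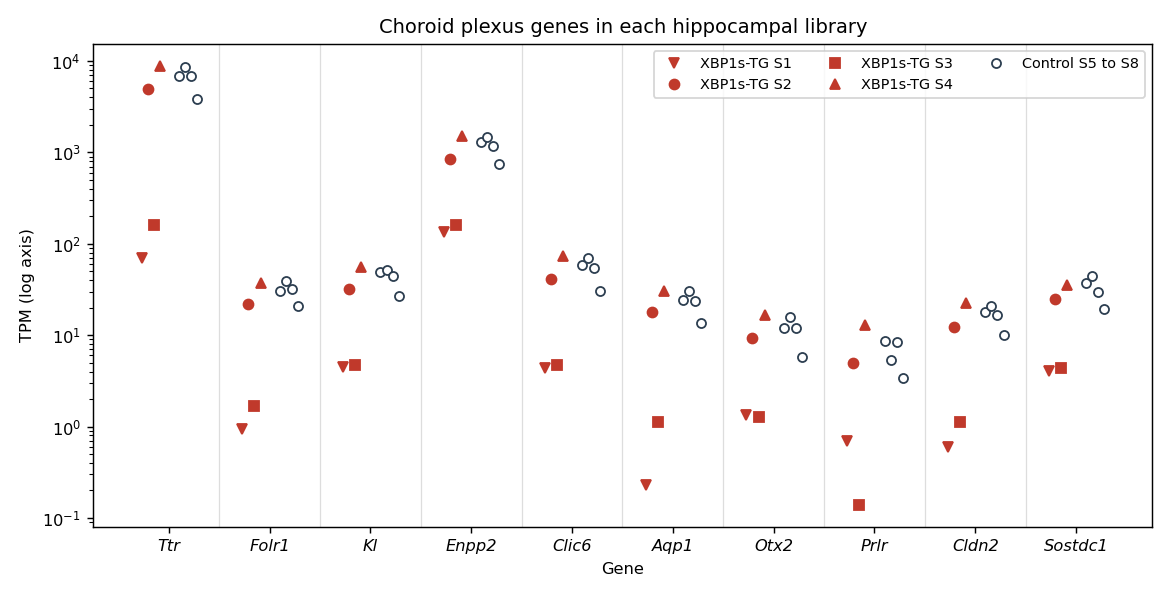
TPM on a log axis of each of the 10 choroid plexus genes in each library, with XBP1s-TG libraries as filled symbols left of the open circles of Control libraries S5 to S8. For every gene S1 and S3 sit at least 4.28-fold below the lowest of the other 6 libraries, and S2 sits among the Control libraries, and S4 sits among or above them, farthest for Prlr at 12.9 TPM against a highest Control value of 8.59 TPM.

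Within XBP1s-TG, S2 and S4 looked like Control libraries. S2 lay within the Control range for all 10 members, at 71.8% to 82.2% of the Control mean. S4 was above S2 for all 10 members, by 1.43-fold for Sostdc1 up to 2.62-fold for Prlr, and it was the highest of all 8 libraries for 7 members. S4 lay within the Control range for the remaining 3 members.

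Control libraries also differed among themselves in one order. S8 was the lowest Control library for all 10 members, at 50.1% to 67.3% of the Control mean, and S6 was the highest for 9. The highest Control library exceeded the lowest by 1.91-fold for Folr1 up to 2.78-fold for Otx2. Leaving S1 and S3 aside, S8 was the lowest and S2 the second lowest of the 6 libraries for every member. On the marker lists described below, S8 also had the lowest Control median log2 ratio for ependyma (−0.27), stroma (−0.16), endothelium (−0.19) and oligodendrocytes (−0.36). The same held for astrocytes (−0.11), striatum (−0.20) and thalamus (−0.83). S8 was the highest Control library for microglia (0.05) and hippocampus (0.12), and S5 was the lowest for hypothalamus (−0.31).

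Summed over the 10 members, S1, S2, S3 and S4 held 220, 5965, 343 and 10607 TPM, against 8304, 10369, 8173 and 4752 TPM in Control libraries S5 to S8. The members thus made up 0.0220%, 0.597%, 0.0343% and 1.06% of all TPM in S1 to S4, against 0.475% to 1.04% in Control libraries. Ttr made up most of that sum outside S1 and S3, with 83.2% in both S2 and S4 and 81.6% to 83.2% in Control libraries. In S1 and S3 its part of the sum was 31.9% and 47.3%.

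The members did not shrink by one factor in S1 and S3. For each gene the TPM per 1000 TPM of Ttr was compared across libraries, a ratio within a library that does not depend on its depth. In S2, S4 and the Control libraries the ratio was nearly fixed, for instance 3.43 to 3.60 for Aqp1, 2.43 to 2.65 for Cldn2, 7.80 to 8.601 for Clic6 and 169 to 192 for Enpp2. It spanned more for Otx2 (1.47 to 1.89), Sostdc1 (3.98 to 5.45) and Prlr (0.627 to 1.47), and Prlr alone spanned over 2-fold.

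In S1 that ratio was higher than in these 6 libraries for 8 of the 9 genes. Enpp2 reached 1896 TPM per 1000 TPM of Ttr, Kl 63.5, Clic6 62.5, Sostdc1 57.5, Otx2 19.0 and Prlr 9.88, each 7.68 to 11.5 times the level that the same share of the Control mean as Ttr would give. Folr1 and Cldn2 stood at 2.86 and 3.41 times that level. Aqp1, at 0.939 times, was the member that fell with Ttr, though its 7 reads leave a wide interval.

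In S3 the excess over Ttr was smaller than in S1 for 8 genes and larger for Aqp1. Enpp2 was at 5.56 times its level in proportion to Ttr, Sostdc1 at 5.38, Otx2 at 4.50, Kl at 4.36 and Clic6 at 3.52. Cldn2, Folr1 and Aqp1 followed at 2.71, 2.19 and 1.96 times. Prlr was at 0.863 times, and so was not in excess in S3 although it was at 9.95 times in S1.

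The residual levels were small in absolute terms except for Enpp2. At the share that Ttr kept, Enpp2 would be left with 12.6 TPM in S1, where 133 TPM was measured, and 29.1 TPM in S3, where 162 TPM was measured. Oligodendrocyte genes, which mark the other known source of Enpp2 in brain, were at a median log2 ratio of −0.07 (S1) and −0.05 (S3) to the Control mean, with −0.36 to 0.17 in Control libraries. Mbp, which encodes myelin basic protein, stood at 799.7, 909.9, 778 and 910.3 TPM in S1 to S4, against 855, 975.1, 937 and 699 TPM in S5 to S8, and the part of these cells in the Enpp2 values was not tested.

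**Figure D2:**
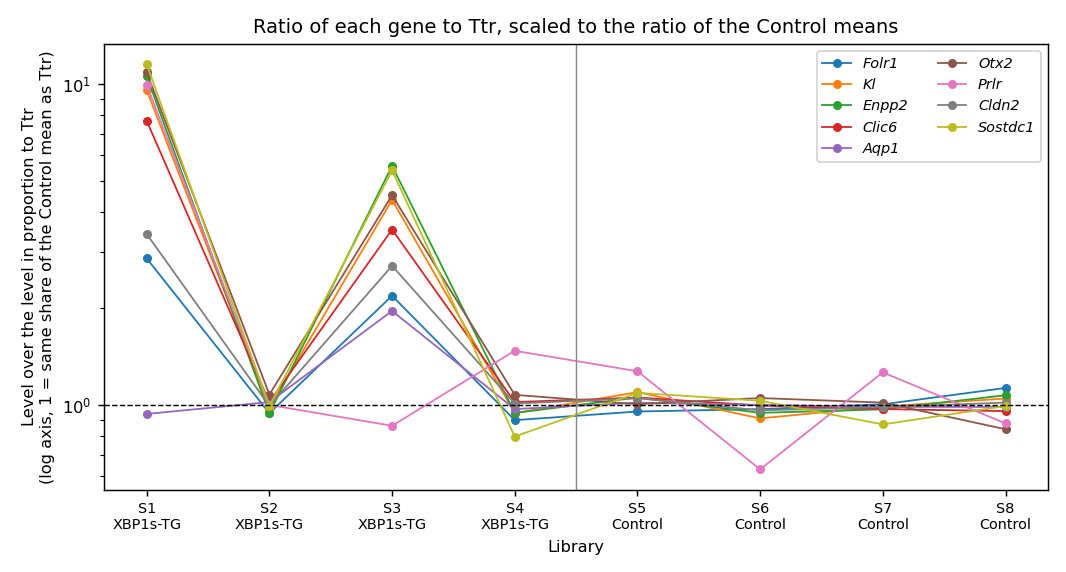
Ratio of each other member to Ttr in each library, divided by the ratio of the Control means, on a log axis where 1 (dashed) means the same share of the Control mean as Ttr. Outside S1 and S3 the lines lie near 1 except for Prlr, which runs from 0.631 in S6 to 1.48 in S4, whereas in S1 they spread from 0.939 for Aqp1 to 11.5 for Sostdc1, and in S3 from 0.863 for Prlr to 5.56 for Enpp2.

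With 2 low and 2 Control-like libraries in one group, the members were among the genes with the widest spread within XBP1s-TG. On the quantile normalized log2 scale the SD over the 4 XBP1s-TG libraries was 3.57 for Ttr, rank 1 of the 9270 genes tested, and 1.24 to 1.89 for the other 8 members tested. All 9 were among the first 24 genes in this ranking, and 8 more of the 24 were on a list of other choroid plexus genes. Over the 4 Control libraries their SD was 0.32 to 0.45, with ranks from 114 to 212. The members were chosen for being low in S1 and S3, so their wide spread within XBP1s-TG restates that choice and nothing is read from these ranks. The median SD of all genes was 0.08 in XBP1s-TG and 0.07 in Control.

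**Figure D3:**
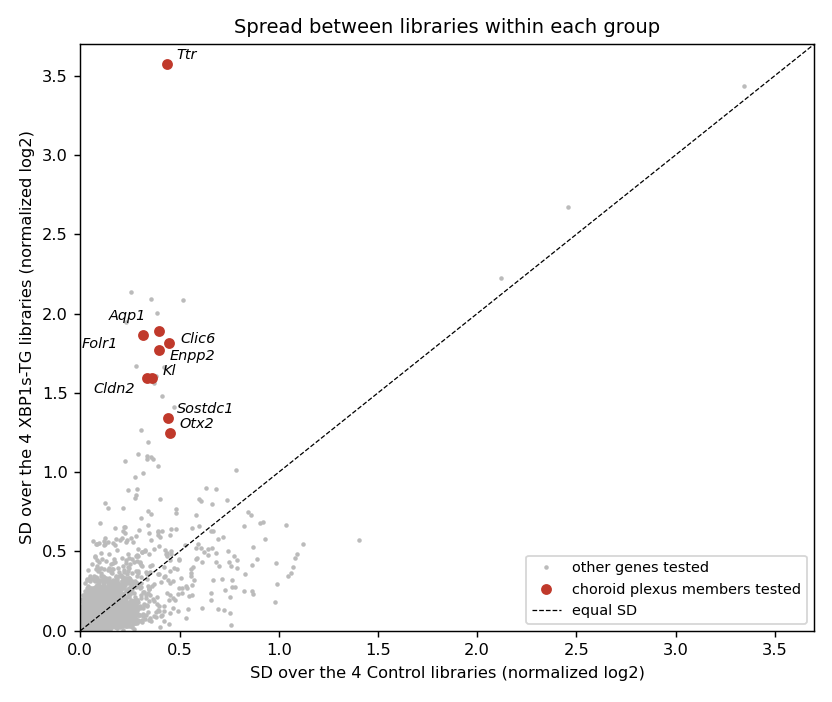
SD over the 4 XBP1s-TG libraries against SD over the 4 Control libraries for the 9270 genes tested, both on the normalized log2 scale, with the 9 members tested in red and the dashed line at equal SD. Chosen for differing between XBP1s-TG libraries, the members lie above that line, Ttr highest at 3.57, and the others at 1.24 to 1.89 on the vertical and 0.32 to 0.45 on the horizontal axis.

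The group comparison of XBP1s-TG with Control was fitted with limma over all 9270 genes, and genes were called when they changed by at least 1.5-fold with an adjusted p (Benjamini-Hochberg) below 0.05. Here 0 of the 9 members were called lower, where 2.75% of all genes were, and 2 of 9 were lower at an unadjusted p under 0.05, where 33.3% of all genes were. All 9 fitted log2 fold changes were negative, with −2.77 (SE 1.44) for Ttr, −1.75 (SE 0.76) for Folr1 and −0.95 (SE 0.54) for Otx2 as the 2 largest and the smallest. The contrast holds the same libraries that chose the members, so nothing is read from these counts. The median over the 9 members was −1.50, beside −0.04 over all genes tested.

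These values turned on single libraries. Without S4 all 9 members were called lower, with 3.35% of all genes called lower in that fit, and without S2 Folr1 and Sostdc1 were called, with 3.6% of all genes. With voom on whole reads recovered from the TPM values, 4 members were called lower (Folr1, Aqp1, Cldn2 and Sostdc1), where 3.07% of all genes were. Without S1 and S3 the members' log2 fold changes ranged from −0.18 for Sostdc1 to 0.32 for Ttr with a median of −0.0048, and 0 of 9 were called, where 1.67% of all genes were called lower.

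The genes most like the members were sought among the 13752 genes with a Control mean of at least 2 TPM. Likeness was the root mean square difference, over the 8 libraries, between a gene's log2 ratio to its Control mean and the median of that ratio over the members, with 0.1 TPM added to each value. The 12 nearest genes were Prr32 (0.12), Mfrp (0.18), Wfdc2 (0.24), Clic3 (0.27), Rbm47 (0.28), Col8a1 (0.29), 1500015O10Rik (0.30), Slc16a8 (0.34), Trpv4 (0.34), Wdr86 (0.34), Abca4 (0.37) and Calml4 (0.44). The median over all genes compared was 1.82, and the 13th gene was at 0.44, level with the 12th. The members themselves were at 0.08 (Clic6) to 1.26 (Ttr), and all 12 nearest genes lay closer to the common pattern than Ttr, Aqp1 (0.98), Folr1 (0.56) and Prlr (0.55) did.

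Of these 12 genes, 8 were on a list of other choroid plexus genes, of which 28 were among the 13752 genes compared. The list was written with earlier results of these data known, and the 12 were picked by likeness, so nothing is read from this count. Mfrp, a membrane frizzled-related protein, stood at 4.12, 32.8, 4.07 and 50.1 TPM in S1 to S4, against 39.3, 51.2, 41.1 and 24.2 TPM in Control libraries S5 to S8. 1500015O10Rik, the Ecrg4 gene of a secreted peptide, stood at 5.41, 81.0, 8.74 and 135 TPM in S1 to S4, against 102, 130, 111 and 67.4 TPM in S5 to S8. Both thus had S8 as the lowest Control library and S4 above S2, as the members did. Prr32, at 1.41, 11.8, 0.962 and 22.3 TPM in S1 to S4 against 8.63 to 20.4 TPM in Control libraries, was not on that list. With 2 TPM added in place of 0.1, 6 of the 12 genes stayed among the nearest 12.

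**Figure D4:**
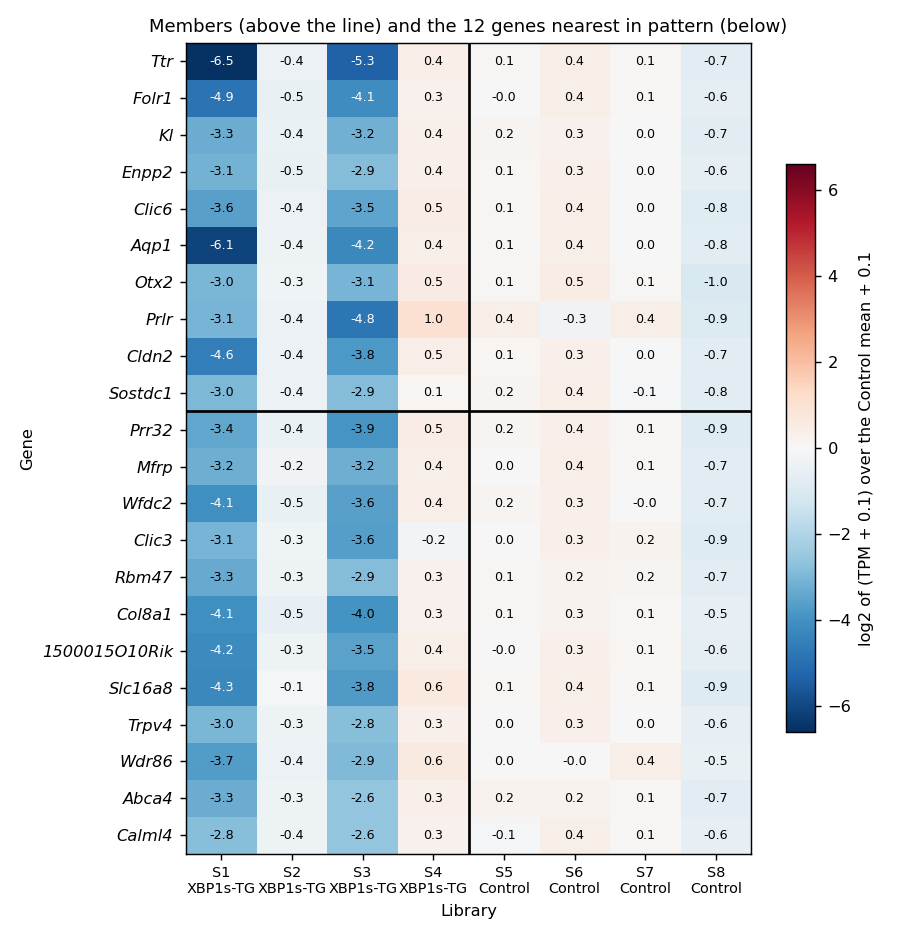
Heat map of the log2 ratio to the Control mean (0.1 TPM added) in each library, for the 10 members above the line and the 12 nearest genes below it, with XBP1s-TG libraries on the left. Columns S1 and S3 are blue throughout, S8 is faintly blue and S4 faintly red for all members.

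A list of 30 other choroid plexus epithelium genes was described beside the members. It was written from textbook knowledge, but with earlier results of these data known. Of the 30 genes, 29 were in the table, and 28 of the 29 were lower in S1 and S3 than in the other 6 libraries. Among the 21 that were tested this held for 20, beside the 7.0% of all genes tested. Because of how the list was written, nothing is read from these counts. The median log2 ratio to the Control mean over the 21 listed genes tested was −2.48, −0.29, −2.26 and 0.35 in S1 to S4, against 0.07, 0.31, 0.03 and −0.62 in S5 to S8. Over the 9 members tested the medians were −3.57, −0.40, −3.48 and 0.40 in S1 to S4, against 0.13, 0.40, 0.04 and −0.75 in S5 to S8. On both lists S1 was lowest, then S3, then S8 and then S2.

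Among the most abundant of them, Kcnj13, the potassium channel Kir7.1 of the epithelium, stood at 0.755, 32.4, 2.85 and 58.9 TPM in S1 to S4, against 51.5, 53.1, 47.0 and 32.8 TPM in S5 to S8. Igfbp2, an IGF binding protein also made by other brain cells, stood at 32.1, 93.8, 58.5 and 128 TPM in S1 to S4, against 80.9 to 139 TPM in Control libraries. Cab39l, a scaffold protein, stood at 29.3, 47.6, 30.3 and 73.1 TPM in S1 to S4, against 43.7 to 67.1 TPM in Control libraries. The gap was thus widest for the channel and narrower for Igfbp2 and Cab39l.

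Kcnk1, a potassium channel also expressed by neurons, was the exception on the list, at 123 to 135 TPM in XBP1s-TG and 113 to 124 TPM in Control libraries. One gene of the 21 tested was called, and it fell. This was Slc29a4, a monoamine transporter, at 21.6, 40.4, 23.99 and 43.0 TPM in S1 to S4, against 42.3, 53.0, 43.2 and 45.9 TPM in S5 to S8 (log2 fold change −0.65, SE 0.20, limma adjusted p = 0.0224). The call was lost without S6 alone, without S1 or S3 alone, and without both S1 and S3, with a log2 fold change of −0.24 and a limma adjusted p of 0.0739 in the last case. The list's median log2 fold change was −0.84, and −0.03 without S1 and S3.

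Genes of the pathways in which the members act were then described, from lists written from textbook knowledge with earlier results of these data known. Of 12 genes of thyroid hormone and retinol transport and response tested, the pathway of Ttr, limma called 0 higher and 1 lower, and 0 lower without S1 and S3, while voom called 2 lower. At an unadjusted p under 0.05 in limma, 8 of the 12 were lower, where 33.3% of all genes were, and their median log2 fold change was −0.30. Summed over the 17 genes of this list, XBP1s-TG libraries S1 to S4 held 2526, 2777, 2443 and 2601 TPM, against 3487 to 3909 TPM in Control libraries. These sums, which the most abundant genes dominate, were lower in all 4 XBP1s-TG libraries, including S2 and S4, in which Ttr was not low. The median log2 ratio to the Control mean over the 12 genes tested was −0.36, −0.21, −0.26 and −0.03 in S1 to S4. In Control libraries it was −0.12 to 0.06, so by this median S4 lay within the Control range. For the lysophosphatidic acid made by autotaxin, 0 of 8 receptors and metabolic enzymes tested were called. None were called of 6 folate genes tested, of 4 genes around klotho and the FGF receptors, of 2 aquaporins, of 4 claudins or of 6 partners of Sostdc1 in Wnt and BMP signaling. At an unadjusted p under 0.05 in limma, 2 genes were higher and 1 lower on the lysophosphatidic acid list and on the klotho list. On each of the other 4 lists 2 were lower, and voom called 0 on all 6 lists. The share of all genes higher at that unadjusted p is not reported here. Nothing is therefore read from counts of higher genes at that p, on these lists or on the marker lists below. Of 5 genes of prolactin receptor signaling tested, Grb2, an adaptor protein of many receptors, rose to 320 ± 30.1 TPM in XBP1s-TG, against 180 ± 3.58 TPM in Control (SD, n = 4 each; log2 fold change 0.73). The other 4 were not called, and of all genes tested 5.61% were called higher.

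Markers of the other tissues and cells near the choroid plexus were read library by library. Ependyma, the ciliated lining of the ventricle, had a median log2 ratio to the Control mean of −0.24, 0.14, −0.29 and 0.35 in S1 to S4, with −0.27 to 0.23 in Control libraries, over the 6 of its 20 genes tested. Its defining gene Foxj1 stood at 16.7, 23.9, 13.8 and 28.5 TPM in S1 to S4, against 16.1 to 28.4 TPM in Control libraries, so S1 and S3 were on the low side but S3 alone was below the Control range. Genes of the choroid stroma, meninges and fibroblasts had medians of −0.47, −0.34, −0.06 and −0.11 in S1 to S4, with −0.16 to 0.11 in Control libraries, over the 5 of its 14 genes tested. Igf2, a growth factor of stroma and meninges, stood at 21.3, 73.1, 44.7 and 112 TPM in S1 to S4, against 68.8 to 119 TPM in Control libraries. No gene of either list was called by limma, with 1 ependymal gene higher and 2 lower, and 2 stromal genes lower, at an unadjusted p under 0.05, and voom called 1 ependymal gene higher.

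In S1 and S3 the medians of the ependymal and stromal lists thus lay nearer to 0 than those of the epithelial genes, and the part of these tissues in the members' values was not tested. Summed over the 29 other choroid plexus genes, XBP1s-TG libraries held 270 (S1) to 996 (S4) TPM and Control libraries 601 to 984 TPM, and summed over the 20 ependymal genes XBP1s-TG libraries held 196 to 271 TPM and Control libraries 198 to 268 TPM. Endothelial, oligodendrocyte, astrocyte and microglial lists, with 7, 11, 10 and 8 genes tested, had 0 called by limma or voom. At an unadjusted p under 0.05, 3 endothelial, 1 oligodendrocyte, 3 astrocyte and all 8 microglial genes tested were lower and 2 astrocyte genes higher, where 33.3% of all genes were lower. Hippocampal markers had 4 of 11 called lower, among them Neurod6, Dsp and C1ql2, and 0 called higher. At an unadjusted p under 0.05 in limma, 5 were lower and 2 higher. Their medians lay between −0.28 and −0.09 in the XBP1s-TG libraries, against −0.08 to 0.12 in Control libraries. Neurod6, a transcription factor of pyramidal neurons, stood at 143, 188, 109 and 145 TPM in S1 to S4, against 269, 238, 227 and 300.2 TPM in S5 to S8, and S2 was below every Control library although its choroid plexus genes lay within the Control range. Of 5 striatal genes tested, Ppp1r1b and Penk fell, and 0 were called without S1 and S3. Of all genes tested, 2.75% were called lower. None of 4 thalamic genes, of 13 mitochondrially encoded genes, or of the single tested genes of the CLIC and OTX families was called by limma or voom (2 mitochondrial genes and the OTX family gene were lower at an unadjusted p under 0.05), and 1 of 24 ribosomal protein genes, Rpl13, fell (log2 fold change −0.73).

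In TPM, before quantile normalization, the 13 mitochondrially encoded genes together held 149920, 165870, 138098 and 150276 TPM in S1 to S4, against 181409 to 205622 TPM in Control libraries. Their median log2 ratio to the Control mean was −0.33, −0.17, −0.44 and −0.37 in S1 to S4, with −0.08 to 0.13 in Control libraries, and 7 of the 13 were lower in S1 and S3 than in the other 6 libraries. All 4 XBP1s-TG libraries, S2 and S4 included, were thus below the Control libraries in mitochondrial RNA, and its part in the members' values was not tested.

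Hypothalamic neuropeptide genes set S1 apart from S3. Avp, the vasopressin gene, stood at 132, 5.83, 6.83 and 7.96 TPM in S1 to S4, against 1.36 to 2.96 TPM in Control libraries, and Pmch, the melanin-concentrating hormone gene, at 57.2 TPM in S1 and 0.877 to 1.92 TPM in S2 to S4, against 0.765 to 4.32 TPM in Control libraries. Both low libraries therefore shared the low level of choroid plexus genes, while Avp and Pmch were high in S1 and not to the same extent in S3. The median log2 ratio over the 6 hypothalamic genes tested was 4.49, 0.56, 0.85 and 0.60 in S1 to S4. In Control libraries it was −0.31 to 0.09, so all 4 XBP1s-TG libraries lay above that range. Summed over the 12 listed genes, only S1, at 954 TPM, lay above the Control range of 557 to 713 TPM, and S2, at 540 TPM, lay below it. Gal, which encodes galanin, stood at 19.6, 10.3, 18.6 and 9.10 TPM in S1 to S4, against 0.764 to 1.26 TPM in Control libraries, and was the 1 gene of 6 tested on this list that was called (log2 fold change 2.30). Of all genes tested, 5.61% were called higher. Without S1 and S3 Gal was under the limit of 14 TPM in every library and was not fitted. The part of neighbouring tissue in the group comparison was not tested.

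**Figure D5:**
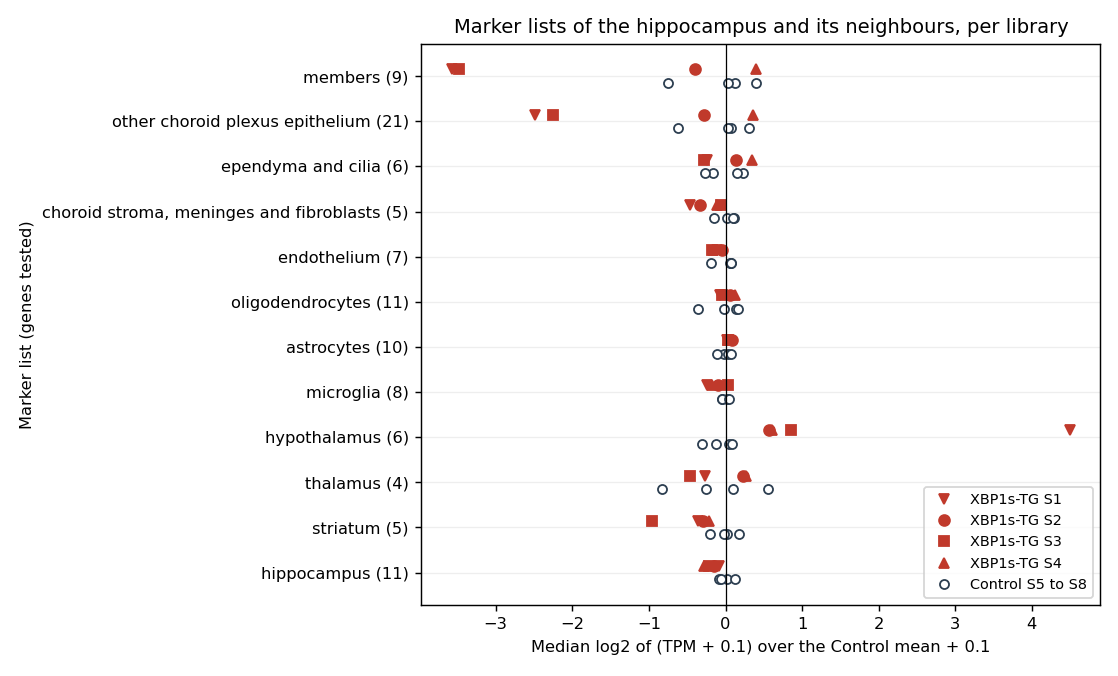
Median log2 ratio to the Control mean (0.1 TPM added) of the genes tested on each marker list, per library, with XBP1s-TG libraries as filled symbols above the open circles of Control libraries. The members and the other choroid plexus genes lie far left in S1 and S3 only, at −2.26 and below, the hypothalamic list lies far right in S1 at 4.49, and the other points lie between −0.96 and 0.85.

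The transgene's level and the members had different orders over the XBP1s-TG libraries. Xbp1 was highest in S3 and S1, at 1094 and 786 TPM, where the members were lowest, but it was lower in S2 (549 TPM) than in S4 (729 TPM) although the members were lower in S2 too. With 4 libraries no relation was tested.

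Across all genes, 520 rose (5.61%) and 255 fell in XBP1s-TG, 8.36% in either direction, with 0 members among them. Without S1 and S3, 407 rose and 152 fell, of which 403 and 144 were among the genes called with all libraries.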

How the data were processed

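Hippocampal total RNA of 4 XBP1s-TG and 4 Control mice was measured by RNA-Seq. Per the labels and the study's methods, stranded mRNA libraries were made from 500 ng of RNA (KAPA kit) for Illumina sequencing. The authors checked reads with FastQC, trimmed them with Trimmomatic, and mapped and counted them on GRCm38, annotation 83, with CLCbio Genomics Workbench, and they deposited TPM values per gene. The table deposited by the authors also holds group means, fold changes and p-values of their own comparison, which were not used. Library columns S1 to S8 were assigned to groups by the sample information deposited with the table, which carries no replicate numbers.

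The deposited TPM values plus 2 were put on a log2 scale and quantile normalized across the 8 libraries (limma 3.58.1, R 4.3.3). The study's noise limit was taken as 4 on this scale (14 TPM), so that the 9270 genes above it in at least 1 library entered limma's linear model with a trended eBayes step, in place of the study's unequal-variance test. The procedure was tested on simulated data with independent normal noise and the largest SDs capped. The simulation thus did not cover genes as widely spread within XBP1s-TG as the members. Levels, shares, rankings and promoter matches were computed with Python 3.11.15 and pandas 2.3.3, and counting intervals with scipy 1.17.1.

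The libraries were first put on a common scale. Ratios of each gene's TPM between libraries then gave back whole reads for all 29237 genes with a value above 0 (tolerance 0.001). A gene present in only 1 library meets this by construction. Exon lengths of the same genome build were used to undo a shared factor in 488 genes. The reads gave library totals and exact Poisson 95% intervals. These intervals cover counting error only. A read in a gene of 1 kb was worth 0.0604 to 0.0900 TPM. Whether a unit is a read or a read pair is not given in the sources used here. The recovered reads were also fitted with voom.

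The members and all gene lists were chosen with earlier results of these data known. The genes named are the members, Xbp1, the 12 genes nearest in pattern, the 6 most abundant other choroid plexus genes and any called, up to 3 called genes with the smallest adjusted p and the first 3 genes of the other lists. Among the hippocampal markers, C1ql2 was named beyond the rule's 3 called genes after its values were seen. Some genes that the rule covers are not reported here. Alternatives were other pseudocounts, filters and normalizations, voom, and leaving out libraries. The methods speak of independent samples and of biological replicates, so p-values refer to spread between samples, taken here as separate mice. Differences between mice and between dissections cannot be told apart in that spread.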

Additional observations from a re-analysis of the deposited data

Results flagged for a closer look

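Among 134 groups of 4 libraries examined for the genes named and their lists' defining markers, 8 (5.97%) had 1 library far from the other 3, where chance gives about 1 in 20. The groups were not independent, as 3 of the 8 were hypothalamic genes in library S1, so nothing is read from this share. None of the 8 was a member or another choroid plexus gene. The members had 2 low libraries among the 4 of XBP1s-TG, which a rule for 1 library apart from 3 is not made to flag. Nothing is therefore read from their absence. In XBP1s-TG library S1, Avp stood at 132 TPM (5.83 to 7.96 TPM in S2 to S4), Oxt, the oxytocin gene, at 41.4 TPM (1.84 to 2.60 TPM) and Pmch at 57.2 TPM (0.877 to 1.92 TPM). These 3 hypothalamic genes were high in 1 of the 2 libraries with low choroid plexus genes. In Control library S8, the lowest Control library for all 10 members, the endothelial genes Cldn5 and Pecam1 stood at 62.6 TPM (72.2 to 74.0 TPM in S5 to S7) and 10.7 TPM (13.4 to 13.8 TPM). In Control library S7, Pmch stood at 4.32 TPM (0.765 to 1.33 TPM in the other 3) and Tcf7l2, a thalamic transcription factor, at 3.08 TPM (1.78 to 2.00 TPM). Prox1 stood at 33.1 TPM in Control library S5 (35.3 to 35.5 TPM in the other 3).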

How the results depend on the processing

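No paired analysis was possible because the library columns carry no replicate numbers. Adding the same 0.1 or 2 TPM to a level and to the Control mean cannot change which is lower. That all 40 of the members' log2 levels in S1 and S3 stayed below the Control mean was thus fixed in advance. Of the 40, 14 moved by more than the Control SD. Of 151 member fold changes under the alternatives, 146 were negative, among them all 72 with 1 library left out. Each of these 72 fits kept S1 or S3, whose low levels chose the members, so nothing is read from the signs. Without both S1 and S3 the fold changes ran from −0.18 for Sostdc1 to 0.32 for Ttr. Members called lower numbered 0 of 9, but 4 with voom and 0 to 9 with 1 library left out (9 without S4, 2 without S2). Other choroid plexus genes called lower numbered 1, but 0 with no filter, 0 with no normalization beyond TPM, 0 without S1 and S3, 6 with voom, and 0 to 19 with 1 library left out, 19 being the count without S4. Over all genes, 255 fell, against 151 with no normalization beyond TPM and 152 without S1 and S3. The split of higher to lower calls was 520 to 255, and 705 to 151 with no normalization beyond TPM. The cause of these shifts was not tested, beyond the smaller number of libraries where some were left out. Depth limited the members in S1 most, where Aqp1 rested on 7, Cldn2 on 23 and Folr1 on 25 reads.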
